A study of Mus musculus with 4 samples.

Results

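The other neuronal cadherins described here are 9 genes, Cdh4, Cdh7, Cdh8, Cdh12, Cdh13, Cdh18, Cdh19, Cdh20 and Cdh24, followed through open chromatin in embryonic motor neurons of the mouse. Intervals of 4 ATAC-seq peak lists were merged into 199576 regions, and each region went by its midpoint to the protein-coding gene body that holds it, or otherwise to the nearest body within 100 kb. The 9 genes received 445 of these regions, 393 inside gene bodies and 52 outside them. Assignment by position does not show that a region acts on the gene. Motor neurons were sorted by GFP from the cervical spinal cord at embryonic day 12.5, from 2 Hoxa5-deficient and 2 control samples; both genotypes carried the ChAT::GFP reporter, which labels cholinergic neurons. The mutant embryos lack function of Hoxa5, a homeodomain transcription factor of cervical segments, and the controls were littermates. Sample titles mark the controls as Wt and the Hoxa5-deficient samples as Mut. The nature of the Hoxa5 allele, the genotype of the controls beyond the label Wt, and the number of embryos behind each sample are not known from the labels. The comparison asks where accessibility differs without Hoxa5.

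Cadherins are calcium-dependent adhesion proteins. Classical cadherins bind cadherins of neighbouring cells through their outer domains, and bind catenins, which link to actin, through their inner tail. In the spinal cord of chick and mouse, motor neurons of different pools carry different combinations of cadherins, and these combinations take part in sorting their cell bodies into clusters. Cdh4 (R-cadherin) is a type I classical cadherin. Cdh7, Cdh8, Cdh12, Cdh18, Cdh19, Cdh20 and Cdh24 are type II cadherins. Cdh13 (T-cadherin) has no inner tail and is held at the membrane by a lipid anchor.

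The Hoxa5-deficient lists held 122736 and 133896 of the merged regions and the control lists 109746 and 106783. Read depth was read from the local background at summits, whose lowest value was 5.14 and 6.06 tags in Hoxa5-deficient libraries and 5.43 and 4.39 tags in controls, where a tag is 1 sequenced end extended to a fixed length. By this measure control 1 lay between the Hoxa5-deficient libraries and control 2 below all others, and the part of depth in the counts of regions was not tested. Inside Hoxa5 itself, 2 regions were called in all 4 libraries, which does not check the labels because the nature of the Hoxa5 allele was not given. Of 7 motor neuron marker genes, 6 and 7 had a peak within 1 kb of a gene end in Hoxa5-deficient libraries and 7 and 7 in controls. Markers of Schwann cell precursors and neural crest were open at 6 and 7 of 7 genes in Hoxa5-deficient libraries and at 6 and 7 in controls. The 5 neural progenitor markers were open in every library, with a median percentile within the list of 75.3 and 77.4 in Hoxa5-deficient libraries and 89.0 and 87.7 in controls. Endothelial markers were open at 1 and 2 of 5 genes in Hoxa5-deficient libraries and at 1 and 1 in controls, and blood and microglial markers at 1 and 1 of 5 in Hoxa5-deficient libraries and at 2 and 2 in controls. Median list percentiles of motor neuron markers were 76.6 and 72.4 in Hoxa5-deficient libraries and 71.2 and 69.4 in controls. In the same order they were 78.3, 71.5, 78.7 and 68.1 for Schwann cell precursors and neural crest. From 1 or 2 open genes per library, they were 85.4, 44.3, 87.1 and 84.3 for endothelium. For blood and microglia, also from 1 or 2 genes, they were 78.1, 81.4, 48.7 and 57.9. The part of other cell types in the results was not tested.

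The sequences around the starts of cadherin genes show where the strongest signal of several members sits. Each is a RefSeq promoter of the assembly GRCm38.p6 (coordinates of mm10), from 250 bases before to 50 bases after an annotated start, written 5′ to 3′ on the gene's strand. Such promoters were held for 6 of the 9 genes, and 4 are printed, because their start regions either stood highest or differed between the genotypes and held at least 2 summits in the window. Capitals mark the bases from the first to the last summit that falls inside the window. They are Cdh18 (chr15:23036213-23036512, plus strand), Cdh24 (chr14:54641315-54641614, minus strand), Cdh7 (chr1:109982650-109982949, plus strand) and Cdh12 (chr15:21111202-21111501, plus strand).
Cdh18: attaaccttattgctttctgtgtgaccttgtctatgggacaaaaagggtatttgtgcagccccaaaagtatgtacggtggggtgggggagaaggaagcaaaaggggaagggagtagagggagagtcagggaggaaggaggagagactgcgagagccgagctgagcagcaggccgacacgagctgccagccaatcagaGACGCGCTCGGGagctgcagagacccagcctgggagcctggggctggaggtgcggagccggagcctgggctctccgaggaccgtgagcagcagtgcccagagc
Cdh24: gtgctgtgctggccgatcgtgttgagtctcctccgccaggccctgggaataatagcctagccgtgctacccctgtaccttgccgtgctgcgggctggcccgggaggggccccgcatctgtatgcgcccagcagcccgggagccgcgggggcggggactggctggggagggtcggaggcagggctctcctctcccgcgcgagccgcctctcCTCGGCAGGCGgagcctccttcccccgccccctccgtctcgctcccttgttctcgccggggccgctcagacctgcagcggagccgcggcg
Cdh7: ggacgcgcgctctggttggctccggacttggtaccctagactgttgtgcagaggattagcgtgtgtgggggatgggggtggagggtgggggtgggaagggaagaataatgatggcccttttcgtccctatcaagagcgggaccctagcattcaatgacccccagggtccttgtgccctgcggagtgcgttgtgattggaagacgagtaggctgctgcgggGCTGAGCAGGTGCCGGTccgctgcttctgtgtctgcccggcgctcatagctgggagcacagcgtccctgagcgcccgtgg
Cdh12: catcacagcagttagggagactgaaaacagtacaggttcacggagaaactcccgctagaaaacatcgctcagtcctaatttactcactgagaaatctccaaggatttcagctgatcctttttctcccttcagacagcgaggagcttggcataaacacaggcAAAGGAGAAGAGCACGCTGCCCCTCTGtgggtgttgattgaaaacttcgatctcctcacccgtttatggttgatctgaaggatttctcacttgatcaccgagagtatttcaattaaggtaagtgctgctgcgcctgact

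At Cdh18 the summits of all 4 libraries fell within 12 bases, 49 and 42 bases before the start in Hoxa5-deficient libraries and 50 and 53 bases before it in controls. At Cdh24 the 3 summits inside the window spanned 11 bases, and that of control 1 lay 529 bases before the start. At Cdh7 the 4 summits spanned 17 bases. Cdh12 differed from these: its summits lay 392 and 280 bases before the start in Hoxa5-deficient libraries, outside the window, and 89 and 63 bases before it in controls. These promoters were rich in G and C at Cdh24 (73.3%), Cdh7 (62.7%) and Cdh18 (60.3%), and less so at Cdh12 (46.7%), against a median of 52.7% over all RefSeq promoters. TGATNNAT, the motif of Hox proteins with their Pbx partners, searched on both strands, was in 0 of the members' 8 promoters and in 8.85% of all 32851. TAATTA, a homeodomain motif, was in 1 of the 8, at a further start of Cdh7, and in 5.29% of all. CANNTG, the E-box, was in 7 of the 8, all but that of Cdh18, and in 72.3% of all.

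Strength is given as a percentile of the highest −log10 p in a region among the 65789 regions called in all 4 libraries, so that the ranked lists have equal length; 100 is the strongest. It is a rank within a library and not an amount of accessibility. A shared region was counted as higher without Hoxa5 when both Hoxa5-deficient percentiles were above both control ones, and as lower in the reverse case. Values are in the order of libraries 1 and 2 of each genotype, and tags are counted at the highest summit. The 4 libraries allow no exact permutation p below 0.333, so no single region can pass a test, and each difference is described by whether the genotypes overlap.

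The region at the start of Cdh12 (chr15:21110602-21111717), 662 kb into the gene table's body, had percentiles of 68.3 and 67.7 in Hoxa5-deficient libraries, against 41.5 and 37.8 in controls. Its summits held 82 and 111 tags in Hoxa5-deficient libraries and 35 and 27 in controls. Both measures were higher in both Hoxa5-deficient libraries, with no overlap. The region at the outer end of the same body (chr15:20448704-20449739) stood at 78.6 and 71.1 in Hoxa5-deficient libraries and at 61.7 and 54.1 in controls. Cdh12 was once called N-cadherin 2 and is expressed in brain. Both of these Cdh12 regions thus ranked higher without Hoxa5, but no RefSeq promoter was held at the outer end. At the RefSeq start, the highest summits lay outside the promoter window in Hoxa5-deficient libraries and inside it in controls. The tags there thus come from different positions in the 2 genotypes.

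The start region of Cdh7 (chr1:109982264-109983585) covers 2 RefSeq starts, overlaps the promoter window of a further one and had percentiles of 77.4 and 79.1 in Hoxa5-deficient libraries, against 74.5 and 69.5 in controls. It too did not overlap between genotypes, by a narrower gap than at Cdh12. That of Cdh20 (chr1:104768305-104769679), the gene known in chick as MN-cadherin for its expression in motor neurons, stood at 70.2 and 61.9 in Hoxa5-deficient libraries and at 58.1 and 56.6 in controls. The genotypes were again apart, while its summits held 96 and 106 tags in Hoxa5-deficient libraries and 67 and 53 in controls. These summits lay 624 and 935 bases after the RefSeq start in Hoxa5-deficient libraries and 935 and 965 bases after it in controls. All were outside the promoter window, so the values are not those of the start itself.

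The other start regions overlapped between genotypes. Cdh18, of the nervous system, had percentiles of 88.8 and 90.1 in Hoxa5-deficient libraries and 89.7 and 89.1 in controls at its internal start (chr15:23035386-23036951). Cdh24, whose product binds catenins, had 89.0 and 89.2 in Hoxa5-deficient libraries and 88.1 and 89.2 in controls (chr14:54640659-54642090). The lower end of Cdh4 (chr2:179442119-179443780) had 88.7 and 89.2 in Hoxa5-deficient libraries and 89.2 and 89.7 in controls. These 3 were the strongest start regions of the set and stood at nearly the same rank in every library. The start of Cdh8 (chr8:99415122-99416963), a cadherin with patterned expression in connected brain regions, varied more within a genotype, at 57.8 and 51.0 in Hoxa5-deficient libraries and 61.9 and 48.7 in controls. The highest summits at Cdh8 lay 37 and 29 bases before the start in library 1 of each genotype. In library 2 they lay 717 and 736 bases after it. Of the 8 regions described here at RefSeq promoters or lower gene ends, 4 were higher without Hoxa5, 0 were lower and 4 overlapped. Of all 14549 shared regions at RefSeq promoters or lower gene ends, 25.4% were higher and 30.3% lower. Counted by the rule of that wider set, the members had 10 such regions, 4 higher and 0 lower. Cdh13 and Cdh19 had no region within 1 kb of either gene end. No RefSeq promoter was held for these genes, so a start inside the body could not be located, and an open start is not excluded. The strongest shared region of Cdh13 (chr8:118283267-118285006) lay 144 kb inside the body, with 79.9 and 80.2 in Hoxa5-deficient libraries and 83.3 and 78.0 in controls.

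**Figure D1:**
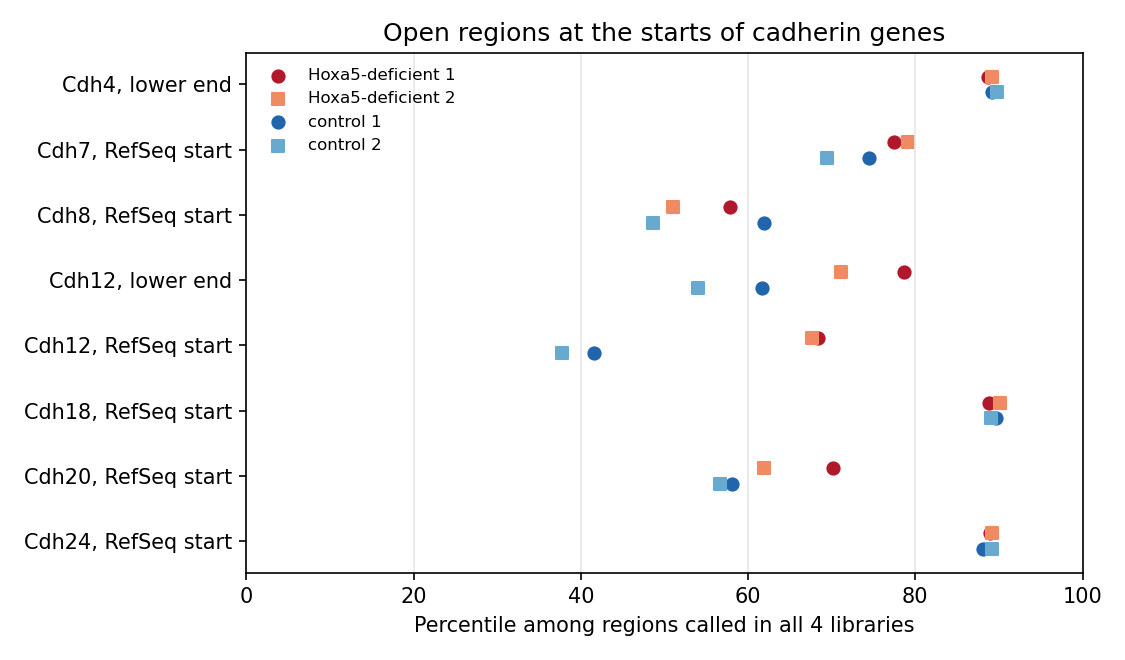
Percentile of strength among regions called in all 4 libraries (horizontal axis) of the 8 start or gene-end regions (rows), with 1 point per library, Hoxa5-deficient in red above control in blue. The RefSeq start of Cdh12 shows the widest gap, 68.3 and 67.7 in Hoxa5-deficient libraries against 41.5 and 37.8 in controls, and Cdh18, Cdh24 and Cdh4 stand near 89 in every library.

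The number of regions differed greatly between the genes. Cdh13, of 1185 kb, held 168 regions inside it and Cdh4, of 457 kb, held 110. Per length, Cdh4 had 24.1 regions per 100 kb, above 95.1% of the 2429 protein-coding genes of at least 100 kb, and Cdh13 had 14.2 (above 72.7%). The long type II genes were sparse, with 4.0 per 100 kb at Cdh12, 4.07 at Cdh8, 3.12 at Cdh18, 3.07 at Cdh7 and 6.60 at Cdh20, against a median of 9.55. Cdh24, of 10.8 kb, held 3 regions. Cdh19, which in mouse marks Schwann cell precursors, held 1 (chr1:110937150-110937428), called in Hoxa5-deficient library 1 alone with 14 tags, and none outside it.

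All members together had 279 and 290 regions in Hoxa5-deficient libraries and 220 and 213 in controls, a mean difference of 68 regions (exact two-sided permutation p = 0.333, the smallest that 2 against 2 libraries can give). The genotypes did not overlap. As a share of each library's regions these were 0.227% and 0.217% in Hoxa5-deficient libraries and 0.200% and 0.199% in controls, so the shares differed less than the numbers. With each list held to the same number of intervals, the members had 237 and 222 regions in Hoxa5-deficient libraries and 215 and 213 in controls. The difference was then 15.5 regions.

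**Figure D2:**
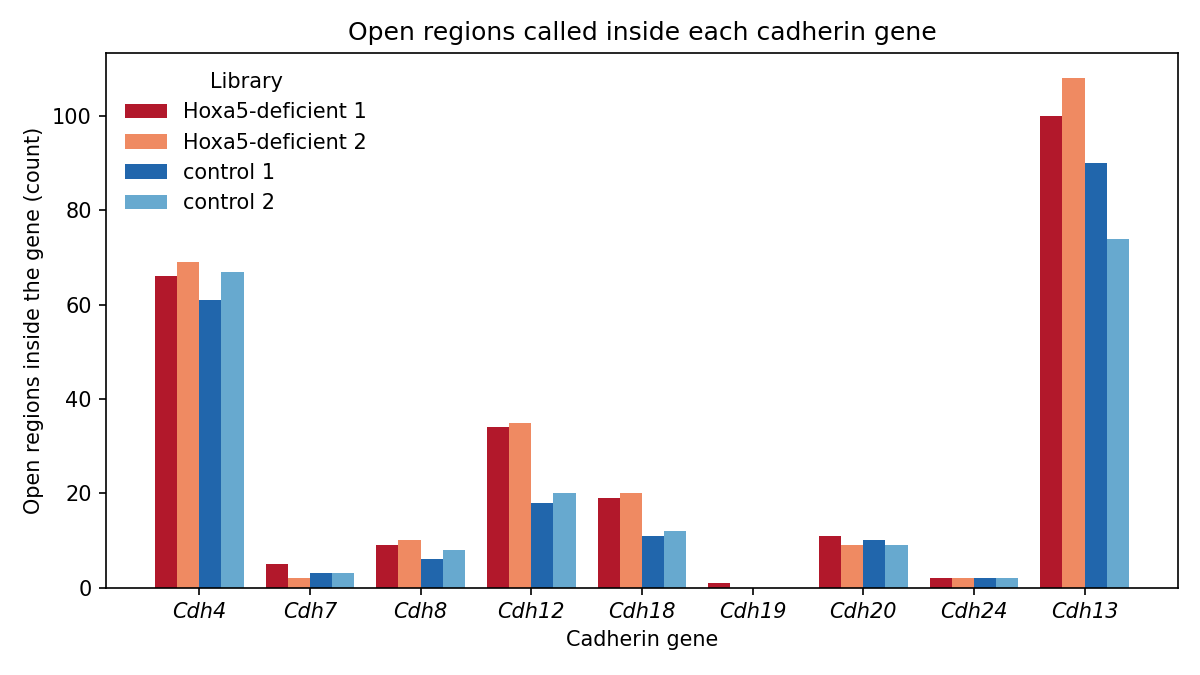
Number of merged regions inside each gene body (vertical axis), with 1 bar per library and Hoxa5-deficient libraries left of controls. Cdh12 has 34 and 35 regions inside it in Hoxa5-deficient libraries against 18 and 20 in controls, while Cdh24 has 2 in each.

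Inside the bodies, Cdh12 stood furthest apart in relation to its number, with 34 and 35 regions inside it in Hoxa5-deficient libraries and 18 and 20 in controls. Cdh18 had 19 and 20 in Hoxa5-deficient libraries and 11 and 12 in controls, and Cdh13 had 100 and 108 against 90 and 74. In Cdh8 the numbers were 9 and 10 in Hoxa5-deficient libraries and 6 and 8 in controls. These 4 genes did not overlap between genotypes, and all 4 had more regions in Hoxa5-deficient libraries. The same held for 13% of all genes with a region and for 58.7% of those over 200 kb, a class that holds 6 of the members and all of these 4, while 5.85% of all genes and 2.56% of those over 200 kb had fewer in both. The 4 of 6 are thus near the share of long genes. Cdh4 had 66 and 69 regions in Hoxa5-deficient libraries and 61 and 67 in controls, Cdh20 had 11 and 9 against 10 and 9, and Cdh7 had 5 and 2 against 3 and 3, and in these the genotypes overlapped. Outside the bodies, Cdh13 had 16 regions, with 12 and 12 in Hoxa5-deficient libraries and 5 and 3 in controls. Cdh20 had 15, with 9 and 12 in Hoxa5-deficient libraries and 5 and 6 in controls. In both genes the genotypes were apart. Cdh12, Cdh18 and Cdh24 had 4 each, Cdh4, Cdh7 and Cdh8 had 3 each, and Cdh19 had 0. Outside regions called only without Hoxa5 numbered 4 at Cdh13, 4 at Cdh20, 2 at Cdh12 and 1 at Cdh18, and the 1 called only in controls was at Cdh20.

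Inside the genes, 51 of 393 regions (13%) had a peak in both Hoxa5-deficient libraries and in neither control, against 9.11% of all regions in genes and 12.9% of those in genes over 200 kb. The reverse, a peak in both controls alone, held for 14 regions (3.56%), against 3.4% of all in genes and 3.43% in genes over 200 kb. The first share is above that of all genes and near that of long genes, the class to which most member regions belong: in the members over 200 kb it was 51 of 384 (13.3%). Outside the genes, 11 of 52 regions (21.2%) were called in both Hoxa5-deficient libraries alone, against 9.24% of all outside regions, and 1 (1.92%) in both controls alone, against 3.69%. This outside background was not limited to long genes. At −log10 q of 5 or more, 3 outside regions were called only without Hoxa5 and 1 only in controls. With lists of equal length the shares in member genes were 11.5% and 6.18%, against 7.49% and 4.8% of all regions in genes. A further 157 regions inside the genes (39.9%) were called in 1 library only, 87 of them in a Hoxa5-deficient and 70 in a control library. Regions of 1 gene are not independent, and these shares are descriptions.

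Inside genes, regions called only without Hoxa5 numbered 21 in Cdh13, 10 in Cdh4, 9 in Cdh12, 4 in Cdh8, 4 in Cdh18 and 3 in Cdh20. Those called only in controls numbered 6 in Cdh13, 4 in Cdh4, 2 in Cdh8, and 1 each in Cdh18 and Cdh20, with 0 in Cdh12. Cdh7, Cdh19 and Cdh24 had neither kind. In 6 of the 9 genes, all those over 200 kb, regions of the first kind were thus more numerous, and in 0 the second. Among all genes over 200 kb with a region the first kind was more numerous in 82.8% and the second in 6.87%, and among all genes with a region in 20% and 7.69%. With outside regions included, −log10 q of 5 or more left Cdh20 with 0 of the first kind and 1 of the second and Cdh8 with 1 of each. Cdh4 had 12 and 19 without control 1, and 14 and 17 without control 2. In Cdh13 the 6 regions called only in controls lay between 1.88% and 33.7% of the way along the body from its lower coordinate, whereas the 21 called only without Hoxa5 lay between 9.57% and 91.8%. The 2 of Cdh8 that were called only in controls lie 52 bases apart.

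**Figure D3:**
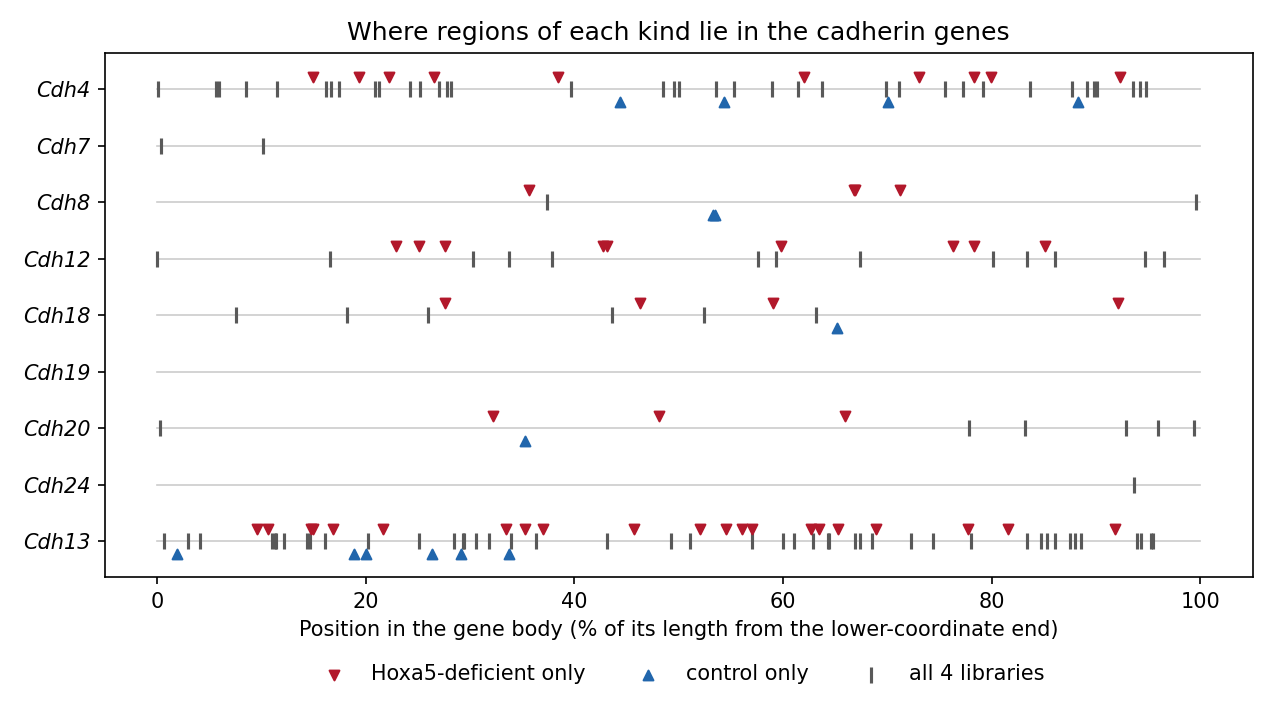
Position of regions inside the genes, as percent of the gene body from its lower coordinate (horizontal axis), with a row per gene; red triangles are regions called only in both Hoxa5-deficient libraries, blue triangles only in both controls, and bars in all 4 libraries. In Cdh13 the 6 control-only regions lie at or below 33.7% of the body.

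Most genotype-only regions were weak. Ranked within a library's whole list of regions, the weaker of the 2 libraries stood at a median percentile of 29.8 for the 51 regions called only without Hoxa5, and 10 of them passed 50 in both, against a median of 25.1 and 1611 of 9763 for all such regions in genes. For the 14 called only in controls the median was 16.4, and 3 passed 50 in both, against 26.0 and 430 of 3642. The strongest without Hoxa5 was in Cdh13 (chr8:118314923-118315988), at list percentiles of 78.3 and 84.8 with 70 and 136 tags over a local background of 9.33 and 14.7. No peak was called there in controls. The strongest of Cdh4 (chr2:179725571-179725862) stood at 69.4 and 77.6 with 42 and 74 tags, and that of Cdh12 (chr15:21136405-21137192) at 74.9 and 58.6 with 48 and 35 tags. Cdh18 had one at chr15:23096542-23097075, at 50.2 and 71.5. Those of Cdh8 (chr8:99304193-99304649, 50.2 and 44.3) and Cdh20 (chr1:104877410-104877771, 25.1 and 37.4) were weaker.

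The strongest regions called only in controls were in Cdh8 (chr8:99234343-99234877), at list percentiles of 63.9 and 60.2 with 36 and 27 tags, and in Cdh13 (chr8:118161947-118162559), at 57.5 and 64.0 with 29 and 30 tags. Those of Cdh4 (chr2:179645076-179645478, 42.8 and 35.7), Cdh18 (chr15:23153730-23153962, 44.4 and 5.30) and Cdh20 (chr1:104848292-104848757, 16.0 and 33.2) ranked lower. A region without a called peak is one below the caller's threshold, not one shown to be closed.

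Of the regions inside the genes, 112 (28.5%) were called in all 4 libraries, against 35.1% of all regions in genes and 27.6% of those in genes over 200 kb. Among the 112, 38 (33.9%) ranked higher without Hoxa5, against 29.1% of all shared regions in genes and 36.9% in long genes. Lower ranks held for 20 (17.9%), against 31.3% in all genes and 26.6% in long genes. Ranked in whole lists rather than among shared regions, 46.4% were higher and 15.2% lower, against 41.2% and 19.96% of all. With a gap of at least 10 points, 17 (15.2%) were higher, against 11.5% in all genes and 20.1% in long genes, and 9 (8.04%) were lower, against 11.1% and 12.3%. The share of higher regions thus lay between the backgrounds of all and long genes, and that of lower regions was below both. The median difference, Hoxa5-deficient minus control, was 3.38 points in member genes, 1.56 in genes over 200 kb and −0.28 in all genes.

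Outside the genes, 11 regions were shared: 3 were higher without Hoxa5, against 24.7% of all shared outside regions, and 3 lower, against 38.2%. By at least 10 points 3 were higher, against 12% of all, and 2 lower, against 15.1%. With 11 regions these counts carry little weight. By gene, medians inside the body were 24.8 points at Cdh7 (2 regions), 13.2 at Cdh8 (2), 9.75 at Cdh12 (13), 6.85 at Cdh4 (37), 3.44 at Cdh13 (45), −3.95 at Cdh18 (6) and −4.37 at Cdh20 (6). Cdh24 had 1 shared region, its start.

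**Figure D4:**
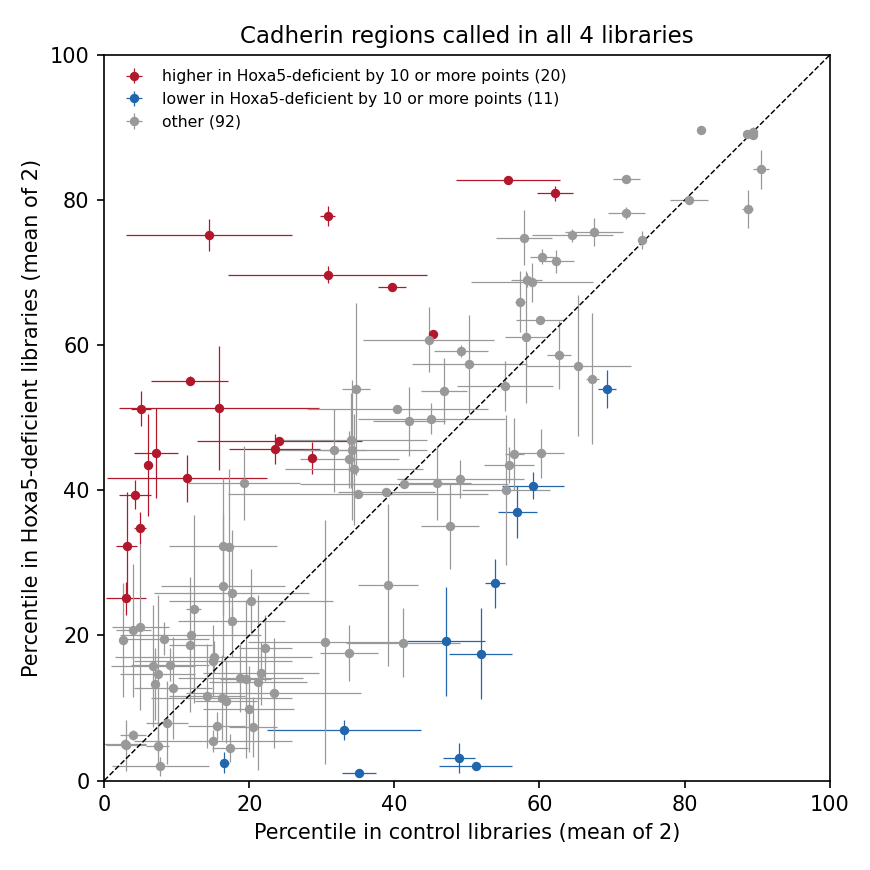
Mean percentile of the 123 shared member regions, inside and outside genes, in Hoxa5-deficient libraries (vertical axis) against controls (horizontal axis); lines through a point span its 2 libraries, and the dashed line marks equal percentiles. By the rule of at least 10 points 20 are higher without Hoxa5 (red), 11 are lower (blue) and 92 are neither (grey).

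The shared regions with the widest differences were picked after their values were seen. The widest of all was in Cdh4 (chr2:179568905-179569731), at percentiles of 72.9 and 77.4 in Hoxa5-deficient libraries and 2.96 and 25.9 in controls, with 106 and 177 tags against 22 and 30. The next among those higher without Hoxa5 was near the upper end of Cdh12 (chr15:21557804-21558736), at 76.4 and 79.2 in Hoxa5-deficient libraries and 29.8 and 31.8 in controls, with 101 and 155 tags against 27 and 24. Both were in the upper ranks without Hoxa5 and in lower ones in controls. The second region of Cdh7 (chr1:109998481-109999253), a gene that migrating neural crest cells of chick express, had 55.7 and 54.5 in Hoxa5-deficient libraries and 17.1 and 6.42 in controls. In Cdh8 the region chr8:99171130-99172100 had 82.6 and 83.0 in Hoxa5-deficient libraries and 48.4 and 62.8 in controls. It ranked above the gene's own start in both Hoxa5-deficient libraries and in control 2, and below it in control 1. None of these regions overlapped between genotypes.

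In Cdh13 the widest gains inside the gene were at chr8:118477524-118477985, with 38.9 and 51.4 in Hoxa5-deficient libraries and 10.1 and 4.07 in controls, and at chr8:118517055-118517821, with 50.5 and 36.4 against 5.74 and 6.42. A stronger region (chr8:119020448-119021588) stood at 79.9 and 82.0 in Hoxa5-deficient libraries and at 59.6 and 64.7 in controls. It was not among the widest differences of the gene and was also picked after its values were seen. Outside genes, a region 77.4 kb from Cdh13 (chr8:118062124-118063120) had 48.9 and 53.6 in Hoxa5-deficient libraries and 3.73 and 6.42 in controls. One 85.2 kb from Cdh8 (chr8:99502537-99503202) had 70.9 and 68.6 against 17.1 and 44.5. One 4.76 kb from Cdh20 (chr1:104763282-104763879) had 38.5 and 44.8 against 0.331 and 22.5. All 6 were higher in both Hoxa5-deficient libraries than in both controls.

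In the other direction the widest was in Cdh18 (chr15:22717414-22717974), at 2.49 and 1.41 in Hoxa5-deficient libraries and 46.1 and 56.3 in controls, with 14 and 15 tags against 38 and 40. Here the tags, like the percentiles, were lower in both Hoxa5-deficient libraries, and the part of depth was not tested. In Cdh4 (chr2:179571110-179571596) the percentiles were 1.01 and 5.19 in Hoxa5-deficient libraries and 51.0 and 46.7 in controls. Cdh13 had lower regions at chr8:118379596-118380422, with 0.639 and 1.41 in Hoxa5-deficient libraries and 37.4 and 32.8 in controls, and at chr8:118814827-118815731, with 23.8 and 30.6 against 52.5 and 55.2. Those outside Cdh20 lay 21.4 kb away (chr1:104746680-104747254), with 23.8 and 11.2 in Hoxa5-deficient libraries and 56.2 and 47.5 in controls, and 97.1 kb away (chr1:105092406-105092821), with 5.53 and 8.38 against 43.6 and 22.5. Cdh12, with 0 regions called only in controls, had 2 lower shared regions, of which chr15:20638542-20639779 had 23.8 and 14.2 in Hoxa5-deficient libraries and 33.3 and 49.0 in controls. Thus Cdh4, Cdh12, Cdh13, Cdh18 and Cdh20 each held shared regions of both directions.

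Catenins and other partners of the cadherin tail, 10 genes, had 345 regions inside them. Of these, 52 (15.1%) were called only without Hoxa5 and 11 (3.19%) only in controls. Over all regions in genes the shares were 9.11% and 3.4%, and in genes over 200 kb 12.9% and 3.43%. Of the partners' 46 outside regions, 3 (6.52%) were called only without Hoxa5 and 4 (8.7%) only in controls, against 9.24% and 3.69% of all. Among the partners, Ctnnd2, a delta-catenin of neurons, had 20 of the first kind and 1 of the second with its outside regions. Ctnna2, the neuronal alpha-catenin, had 14 and 3. Ctnna3 had 13 and 5. Of the 77 shared regions in these genes 23 ranked higher and 27 lower, with a median difference of 0.88 points. Over all shared regions in genes, 29.1% ranked higher and 31.3% lower. The 10 other classical cadherins had 178 regions inside them, 23 (12.9%) called only without Hoxa5 and 9 (5.06%) only in controls. Cdh6 had 8 of the first kind and 1 of the second, Cdh11 had 7 and 0, and Cdh2 (N-cadherin) had 7 and 4, with outside regions included. Cdh10 and Cdh22 had 3 each of the second kind. Their shared regions ranked higher in 15 and lower in 19 of 51 cases, with a median difference of −1.70 points, against 3.38 for the members. This difference between the sets was not tested.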

How the data were processed

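ATAC-seq libraries from 2 Hoxa5-deficient and 2 control samples were grouped by the genotype in their labels. The series' text calls them biological replicates, with no word on separate embryos. The p-value, at the smallest value possible, says only that the genotypes did not overlap, not how far the libraries spread. Per the submitters' processing notes the tools were MACS2 2.2.4, Bowtie2 2.3.4.3, FastQC 0.11.9 and SAMtools 1.9, with the build mm10; parameters, any Tn5 shift and a filter that left 323 to 363 peak numbers missing per list were not given in the sources used here. Peaks were called per library. The authors deposited, per peak, a score capped at 1000, a fold ratio over background, −log10 p and −log10 q, and base positions (start, end, summit offset) as other columns. The lowest deposited −log10 p-value is 2.00 in each list, a permissive limit.

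Intervals were merged at 1 bp and assigned with the RefSeq table of GRCm38.p6 (21887 protein-coding genes, no strand, exons and introns not given). Summit tags and background were recovered from fold and −log10 p: a whole-number pileup met the deposited p within 0.001 at 100% of 3000 summits per library, and at all member peaks. Counting error alone limits tags, and PCR copies are not independent. Classes were tested on simulated peak lists with wide differences and little noise, under the rule of at least 10 points, where all were recovered. This checks the code and not calls near the caller's threshold. Members, gene lists, motifs and rules were chosen with earlier results of these data known. Regions named are those at gene ends, the strongest shared and the strongest genotype-only region of each gene. The widest differences and some others were chosen after their values were seen. Python 3.11.15, pandas 2.3.3, numpy 2.4.6, SciPy 1.17.1 and matplotlib 3.10.9 were used. Alternatives covered peak thresholds, equal list lengths, overlap, summit windows, assignment, ranking and leaving out each library.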

Additional observations from a re-analysis of the deposited data

How the results depend on the processing

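No paired analysis was possible because the result comes from no fitted model: regions are present or absent in a peak list, and equal replicate numbers name no shared litter or day. Counts in genes of regions called only without Hoxa5 (51) kept within 1.5 times under every alternative other than leaving out a library, from 36 to 68. With −log10 q of 5 or more, 9 regions in genes were called only in controls (14 in the report), 3 outside only without Hoxa5 (11), and 23 ranked higher (38) and 11 lower (20) in genes and 1 higher outside (3). Where intervals had to cover 50% of a region, 10 ranked lower in genes and 2 outside were called only in controls (1), as were 2 with summit windows. Within 50 kb, 5 outside regions were called only without Hoxa5, 1 ranked higher and 1 lower. Whole-list percentiles gave 5 higher outside. A gap of 10 points gave 17 higher and 9 lower in genes. With no limit of distance, added after the data were seen, 61 outside regions were called only without Hoxa5, 5 only in controls, 26 ranked higher and 9 lower. Among the named regions that were recomputed, none called higher or lower changed sign with fold, whole-list ranks or a library left out. Some named regions of Cdh8, Cdh13 and Cdh20 were not recomputed. The order of the 2 kinds of genotype-only region within a gene did change. At −log10 q of 5 or more Cdh20 had 0 called only without Hoxa5 and 1 only in controls (7 and 2). Cdh4 (10 and 4) had 12 and 19 without control 1 and 14 and 17 without control 2. Recomputed rank differences of single regions moved by no more than the spread between libraries in 146 cases and by more in 28. The causes were not tested, other than by construction.

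Leaving out 1 library loosens the rule, since 1 library of that genotype then decides. Counts in genes called only without Hoxa5 then ran from 65 to 102, and only in controls from 21 to 53; outside genes the first (11) ran from 12 to 20 and the second (1) from 1 to 5. Higher ranks in genes ran from 50 to 60 and lower ranks from 34 to 43; outside genes higher ran from 4 to 7 and lower from 3 to 4. Without control 2, 65 were called only without Hoxa5 and 53 only in controls; without Hoxa5-deficient 1 these were 102 and 22.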

Other observations

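Regions farther than 100 kb from any gene body were left out above. Of 219 such regions nearest to a member, 149 and 142 were called in Hoxa5-deficient libraries and 74 and 87 in controls, and 50 (22.8%) were called only without Hoxa5 against 4 (1.83%) only in controls; over all 33754 such regions of the series the shares were 16.2% and 3.01%. Cdh8 had 87 of them, 18 called only without Hoxa5 and 1 only in controls, Cdh20 had 47 (10 and 1) and Cdh18 had 29 (11 and 1). Cdh4 and Cdh24 had 0.

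Neighbouring regions within 5 kb of each other in opposite directions, picked after their values were seen, made 6 pairs, 2 in Cdh4 and 4 in Cdh13. In Cdh4 the widest gain (chr2:179568905-179569731) lay 1.38 kb from the widest loss of that gene (chr2:179571110-179571596). In Cdh13 the strongest region called only without Hoxa5 (chr8:118314923-118315988) lay 0.790 kb from a shared region that ranked lower, chr8:118313504-118314132, at 26.7 and 11.7 in Hoxa5-deficient libraries and 41.8 and 52.5 in controls. That shared region held 38 and 41 tags in Hoxa5-deficient libraries and 40 and 41 in controls. Its local background was 10.02 and 15.7 in Hoxa5-deficient libraries and 7.38 and 5.625 in controls. The tags thus overlapped between genotypes, and the background was higher in both Hoxa5-deficient libraries.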
